A study of Homo sapiens with 4 samples.

Results

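Transcript levels of 10 genes of polyamine metabolism were read from the RNA-Seq table of control and 3′ WRE-Mut HCT116 cells. They were chosen by gene symbol and make up 10 of the 57815 genes in the table. ODC1, AMD1, SRM and SMS encode the enzymes of synthesis, SAT1, SMOX and PAOX those of breakdown, OAZ1 and OAZ2 the antizymes, and AZIN1 an antizyme inhibitor. HCT116 is an established human colorectal cancer cell line. Control cells are the parental HCT116 population with an intact TBE1 (the wild type of the labels), a TCF binding element in the Wnt-responsive element downstream of MYC. 3′ WRE-Mut cells (the knockout of the labels) are a clone in which CRISPR/Cas9 deleted TBE1 on both alleles. No treatment separated the groups, and each group had 2 libraries. Both 3′ WRE-Mut libraries come from the same clone, so the deletion and any other difference between this clone and the parental cells cannot be told apart. Values are FPKM, fragment counts scaled by the authors to transcript length and to the number of mapped reads of a library.

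Polyamines (putrescine, spermidine and spermine) are small positively charged molecules that bind nucleic acids and are needed for growth. Ornithine decarboxylase makes putrescine and is held in check by antizyme, a protein that binds it and delivers it to the proteasome, while the antizyme inhibitor takes antizyme out of that complex. Antizyme itself is made only when the ribosome shifts reading frame on its mRNA, which polyamines promote, so the level of an antizyme transcript is not the level of the protein. ODC1 is a textbook target gene of the MYC transcription factor, which binds E-boxes of the sequence CACGTG, and colorectal tumors are known for high polyamine content.

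Sequences of the stretches that carry these E-boxes are shown because MYC is the gene next to the deleted element. Among the 10 genes, 7 have promoter windows in the RefSeq table used (250 bases before to 50 after a transcript start, build GRCh38.p14). SMOX, PAOX and AZIN1 were not matched. Both strands were searched for CACGTG and for CACGCG, a related E-box form, and a given position cannot match both. CACGTG was found in windows of 2 genes, ODC1 and SRM, and in 7.26% of all 35116 windows. CACGCG was found in another ODC1 window and in 11.4% of all windows. The shares count windows while the members are counted as genes. ODC1 has 2 windows and AMD1 3, so the units differ and no comparison is drawn. A match of letters is not evidence of binding, and none was measured in these libraries. The stretches were placed on hg19 by exact match and are written 5′ to 3′ on the strand of the gene, with CACGTG in capitals. The first ODC1 stretch (chr2:10588148-10588207, minus strand) lies in intron 1 of transcript ODC1-201 and overlaps 0 annotated exons. Its E-box is 29 bases before the start of the shorter transcript whose window was searched. The second (chr2:10588116-10588145, minus strand) has its E-box in the first exon of other ODC1 transcripts. The SRM stretch (chr1:11120206-11120325, minus strand) lies upstream of the gene, with the E-box 199 bases before the RefSeq start.
ODC1 first E-box: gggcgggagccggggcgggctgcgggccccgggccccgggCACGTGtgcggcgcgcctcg
ODC1 second E-box: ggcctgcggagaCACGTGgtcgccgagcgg
SRM E-box: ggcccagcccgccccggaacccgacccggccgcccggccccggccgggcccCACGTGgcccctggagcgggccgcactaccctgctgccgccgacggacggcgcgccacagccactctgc

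The frameshift sites of the antizyme genes are shown for OAZ1 and OAZ2, the 2 members whose protein depends on them. Capitals mark the last codon of the first reading frame together with the stop codon that the ribosome must pass. The OAZ1 site is at chr19:2271427-2271456 (plus strand) and the OAZ2 site at chr15:64983700-64983729 (minus strand), both hg19. The 2 stretches are identical at 29 of 30 bases, the different base lying before the capitals. The reference annotation writes the shift into the gene model, since in transcripts OAZ1-211 and OAZ2-201 a single base is left out between exons 2 and 3, at position 2271442 and at position 64983714. In each gene this base is the T of the stop codon.
OAZ1 frameshift site: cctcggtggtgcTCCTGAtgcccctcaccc
OAZ2 frameshift site: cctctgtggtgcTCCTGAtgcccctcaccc

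The table lists FPKM and no read counts, which leaves sequencing depth unknown, and 26851 to 29356 genes per library were listed above 0. Of 7 epithelial markers, 6 had a mean of at least 1 FPKM and VIL1 did not exceed 0.148. Their summed level was 2619 to 2864 FPKM in control against 1809 to 1919 in 3′ WRE-Mut cells, and its part in the results below was not tested. This sum is mostly KRT8, KRT18 and KRT19, and CDH1 went the other way, from 42.3 and 24.3 FPKM in control to 49.5 and 73.0 in 3′ WRE-Mut cells. Of 6 markers of blood, fibroblast and liver cells, only COL1A1 passed 1 FPKM, the sums were 14.9 to 17.1 in control against 21.2 to 28.9 in 3′ WRE-Mut cells, and the leukocyte markers PTPRC and CD3E stayed at or below 0.0610. MYC was at 111 and 113 FPKM in the control libraries and at 48.04 and 34.2 in the 3′ WRE-Mut libraries. On the log2(FPKM + 1) scale it fell by 1.44 (standard error 0.25, limma adjusted p = 0.0216) over protein-coding genes, and its adjusted p was 0.149 over all tested genes. Without control replicate 1 or control replicate 2 the former limma adjusted p was 0.101 or 0.107, and over 12 alternatives it lay between 1.37e-05 and 0.190.

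The question for the 10 genes was whether their transcripts differed between control and 3′ WRE-Mut cells. ODC1 and PAOX were lower and AMD1 and OAZ1 higher in each 3′ WRE-Mut library than in either control library, and the other 6 genes overlapped between the groups. AMD1 was 2.05-fold higher and passed the test over protein-coding genes. PAOX was 3.52-fold lower and passed it as well, but it met the filter on low values only through its control libraries. ODC1 at 1.83-fold lower and OAZ1 at 1.57-fold higher did not. The 10 genes had a median log2 difference of −0.027, beside −0.022 for all protein-coding genes, with 5 genes above 0 and 5 below.

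These calls come from limma, a linear model that shares the estimate of spread across genes, with Benjamini-Hochberg adjustment and an adjusted p under 0.05 as the threshold. It was fitted to log2(FPKM + 1) over the 14815 genes averaging 1 FPKM or more and again over the 11631 protein-coding ones among them, and all 10 members passed this filter. Over all tested genes 0 members passed the threshold, beside 0.189% of the genes tested, and 3 members had an unadjusted p under 0.05, beside 22.2%. Over protein-coding genes 1 member rose, beside 4.02% of genes that rose, and 1 fell (PAOX, admitted by its control level), beside 4.31% that fell. An unadjusted p under 0.05 was reached by 4 members, beside 30.1% of protein-coding genes. Complete separation of the groups with 3′ WRE-Mut higher was seen for 2 members and with 3′ WRE-Mut lower for 2, beside 30.9% and 32.0% of protein-coding genes. These shares among members are near the background or rest on so few genes that nothing particular to the list is read from them. For a single gene, 2 libraries against 2 cannot reach an exact two-sided permutation p below 0.333. The authors' methods describe biological replicates, and neither they nor the labels say how the cultures were kept apart.

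**Figure D1:**
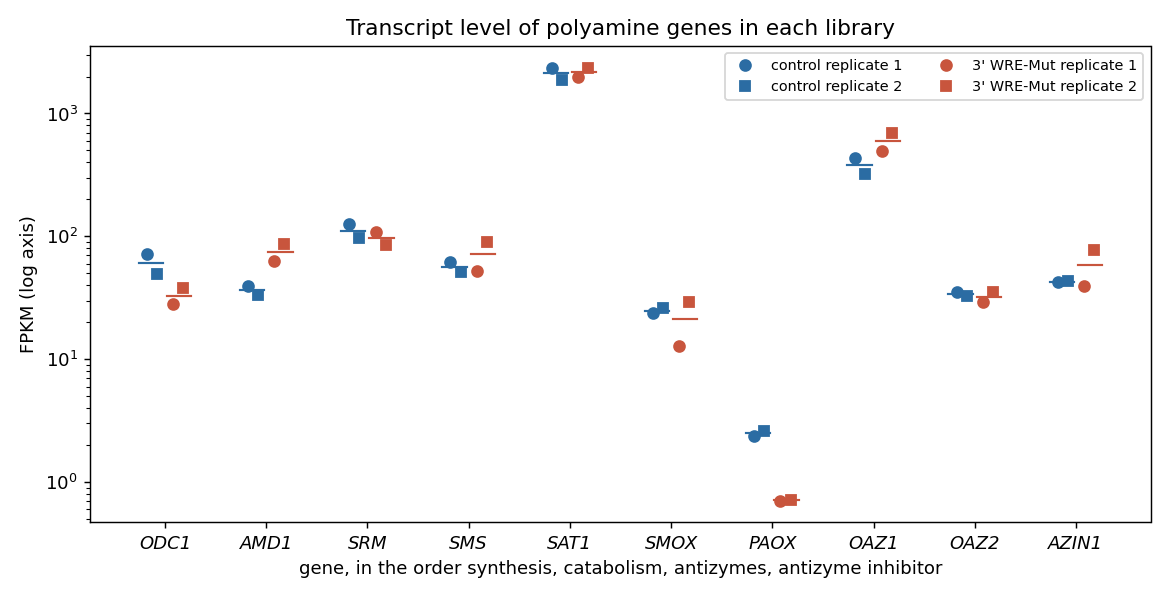
Each point is the FPKM (log axis) of a gene in a library, with control in blue and 3′ WRE-Mut in red, circles for replicate 1, squares for replicate 2 and lines at the group means. SAT1 lies highest, at 1881 to 2364 FPKM, PAOX lowest, and the groups are apart for ODC1, AMD1, PAOX and OAZ1.

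In control cells the members ordered by mean FPKM, which is per transcript length, ran SAT1, OAZ1, SRM, ODC1, SMS, AZIN1, AMD1, OAZ2, SMOX and PAOX. ODC1 and SMS overlapped between their libraries, as did AMD1 and OAZ2, so their order is not set. In 3′ WRE-Mut cells ODC1 and AMD1 had changed places, from rank 4 to 7 and from rank 7 to 4, and the other 8 kept their rank. There SRM, AMD1 and SMS overlapped in level, as did AMD1, SMS and AZIN1, and so did ODC1, OAZ2 and SMOX. The members spanned a wide range, since the mean of SAT1 was above that of 99.5% of protein-coding genes tested and that of PAOX above 6.35%.

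ODC1 encodes ornithine decarboxylase, the enzyme that turns ornithine into putrescine (ENSG00000115758.8, chr2:10580094-10588453, minus strand, hg19 as for all positions here). It was at 71.3 and 49.2 FPKM in the control libraries and at 27.9 and 38.05 in the 3′ WRE-Mut libraries. Both 3′ WRE-Mut values lay below both control values, and the control libraries were themselves 0.53 apart on the log2 scale. The means were 60.3 ± 15.6 and 33.0 ± 7.15 FPKM (SD, n = 2 each), a log2 difference of −0.84 with a standard error of 0.27 and 95% limits of −1.46 to −0.22. The limma adjusted p was 0.0842 over protein-coding genes and 0.203 over all tested genes, so ODC1 did not pass the test. The limma adjusted p over protein-coding genes was 0.0428 with quantile normalization and 0.246 with no filter on low values. With a library left out, the log2 difference ran from −1.10 to −0.58. Its sign could not turn there, since the groups did not overlap. The deposited locus also holds SNORA80B, a small nucleolar RNA gene that was at 13.6 FPKM in control replicate 2 and at 0 in the other libraries.

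AMD1 encodes S-adenosylmethionine decarboxylase, which supplies the aminopropyl groups for spermidine and spermine (ENSG00000123505.10, chr6:111195973-111220082, plus strand). It was at 39.3 and 33.4 FPKM in the control libraries and at 63.4 and 85.9 in the 3′ WRE-Mut libraries. Both 3′ WRE-Mut values were higher than both control values. The means were 36.4 ± 4.20 and 74.6 ± 15.9 FPKM (SD, n = 2 each), a log2 difference of 1.01 with a standard error of 0.25 and 95% limits of 0.44 to 1.57. The rise passed among protein-coding genes (limma adjusted p = 0.0452) but not among all tested genes (limma adjusted p = 0.164). The call was lost in 5 of 12 alternatives, among them no filter on low values (limma adjusted p = 0.197) and leaving out either control library. With a library left out the sign could not turn, since the groups did not overlap. AMD1 stands alone in its deposited locus, and its 4 annotated processed pseudogenes were at 0.164 FPKM or lower.

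SRM, spermidine synthase, and SMS, spermine synthase, use those aminopropyl groups in turn. SRM (ENSG00000116649.5, chr1:11114641-11120077, minus strand) was at 126 and 97.0 FPKM in control against 108 and 85.2 in 3′ WRE-Mut cells. SMS (ENSG00000102172.11, chrX:21958827-22012955, plus strand) was at 61.7 and 51.1 FPKM in control against 52.3 and 90.3 in 3′ WRE-Mut cells. For both genes the groups overlapped, and 3′ WRE-Mut replicate 2 was the lowest of the SRM values and the highest of the SMS values. The log2 difference was −0.20 for SRM (95% limits −0.76 to 0.36, limma adjusted p = 0.615 over protein-coding genes). It was 0.29 for SMS (95% limits −0.38 to 0.95, limma adjusted p = 0.535 over protein-coding genes). The SMS difference turned to −0.10 without 3′ WRE-Mut replicate 2. It was 0.67 without replicate 1 of that group. ODC1 and SRM are the members with a CACGTG match, and their differences were −0.84 and −0.20, neither of which passed the test.

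SAT1, the spermidine and spermine acetyltransferase that starts polyamine breakdown and export, had the highest level of the 10 genes (ENSG00000130066.12, chrX:23801290-23804327, plus strand). It was at 2364 and 1881 FPKM in the control libraries and at 1997 and 2362 in the 3′ WRE-Mut libraries. The groups overlapped almost fully, with means of 2122.5 ± 341 and 2179 ± 259 FPKM (SD, n = 2 each). The log2 difference was 0.042 with 95% limits of −0.59 to 0.68 and a limma adjusted p of 0.931 over protein-coding genes. It changed sign with quantile normalization, where it was −0.36 over protein-coding genes and −0.21 over all tested genes.

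SMOX, spermine oxidase, and PAOX, the oxidase of acetylated polyamines, complete the breakdown genes. SMOX (ENSG00000088826.13, chr20:4101627-4168394, plus strand) was at 23.7 and 26.1 FPKM in control against 12.9 and 29.3 in 3′ WRE-Mut cells. The control pair was close together, and the 3′ WRE-Mut libraries fell on either side of it. The log2 difference was −0.33 (95% limits −1.14 to 0.47, limma adjusted p = 0.551 over protein-coding genes), and it was −0.90 without 3′ WRE-Mut replicate 2 but 0.23 when replicate 1 was the one left out. Each of these fits left 1 library in a group, so neither is read as a call.

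PAOX (ENSG00000148832.10, chr10:135192765-135205198, plus strand) was at 2.39 and 2.61 FPKM in the control libraries and at 0.707 and 0.716 in the 3′ WRE-Mut libraries. Both 3′ WRE-Mut values were lower, and the replicates of each group lay close together. The means were 2.50 ± 0.155 and 0.712 ± 0.00590 FPKM (SD, n = 2 each), and the log2(FPKM + 1) difference was −1.03 with a standard error of 0.27 and 95% limits of −1.64 to −0.43. The added 1 FPKM makes this difference smaller than the 3.52-fold ratio of the means. PAOX averaged 1.61 FPKM over the 4 libraries and both 3′ WRE-Mut values were under 1, so it met the filter only through control, the group where it is high, and a gene admitted in this way had to differ. The fall passed among protein-coding genes (limma adjusted p = 0.0490) but not among all tested genes (limma adjusted p = 0.174). The call was lost without control replicate 1 (limma adjusted p = 0.282) or control replicate 2 (limma adjusted p = 0.287), and in 7 of 11 alternatives in all, over which the adjusted p ran from 0.00723 to 0.287. With no filter it was 0.190. The deposited locus merges PAOX with 11 other genes, and the authors' lower bound of its FPKM was 0 in each of the 4 libraries. In the same locus RP11-108K14.4 was at 1.56 and 1.90 FPKM in control against 0.790 and 0.816 in 3′ WRE-Mut cells. It too averaged 1 FPKM or more only through control, so its lower level in 3′ WRE-Mut cells is not read as a result. The other 2 neighbours averaging 1 FPKM or more overlapped between the groups, CYP2E1 at 2.00 and 4.13 in control against 2.67 and 2.57 in 3′ WRE-Mut cells, and MTG1 at 2.49 and 4.12 against 2.18 and 3.21. How reads were divided between these genes was not tested.

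**Figure D2:**
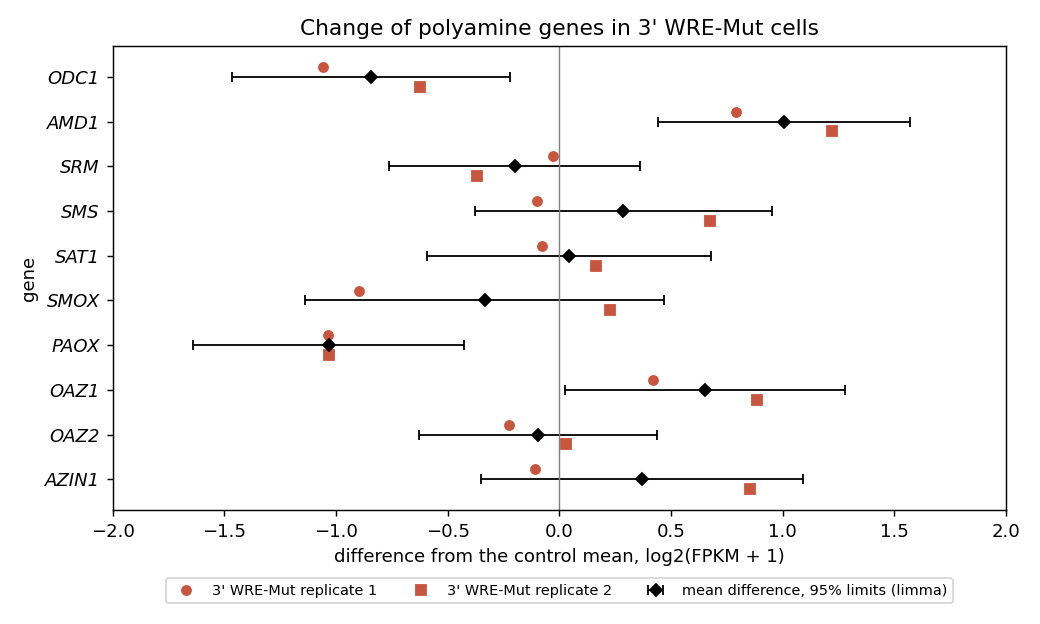
The horizontal axis is the difference from the control mean in log2(FPKM + 1), with red symbols for each 3′ WRE-Mut library and black diamonds with bars for the mean difference and its 95% limits from limma over protein-coding genes. The bars of ODC1, AMD1, PAOX and OAZ1 do not reach 0, though over all tested genes the limits of OAZ1 include 0. For SMS, SAT1, SMOX, OAZ2 and AZIN1 the libraries lie on opposite sides of 0.

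OAZ1, the main antizyme gene, had the second highest level (ENSG00000104904.8, chr19:2269508-2273489, plus strand). It was at 437 and 320 FPKM in the control libraries and at 499.8 and 691 in the 3′ WRE-Mut libraries. Both 3′ WRE-Mut values were higher than both control values, with 3′ WRE-Mut replicate 1 the nearer to them. The means were 378 ± 82.8 and 595 ± 135 FPKM (SD, n = 2 each), a log2 difference of 0.65 with a standard error of 0.28. The 95% limits were 0.027 to 1.28 over protein-coding genes and −0.089 to 1.39 over all tested genes, where they include 0. OAZ1 did not pass the test (limma adjusted p = 0.150 over protein-coding genes and 0.261 over all tested genes). With a library left out, its log2 difference ran from 0.42 to 0.89. Its deposited locus is shared with JSRP1, which did not exceed 0.0733 FPKM.

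OAZ2, an antizyme gene with a nearly identical frameshift site, was at 35.5 and 32.9 FPKM in control against 29.1 and 34.9 in 3′ WRE-Mut cells (ENSG00000180304.10, chr15:64979772-64995480, minus strand). The groups overlapped and the means, 34.2 ± 1.82 and 32.0 ± 4.12 FPKM (SD, n = 2 each), were close. The log2 difference was −0.10 (95% limits −0.63 to 0.44, limma adjusted p = 0.803 over protein-coding genes), and it was 0.031 without 3′ WRE-Mut replicate 1. Whether OAZ1 and OAZ2 differed in response was not tested. The deposited locus merges OAZ2 with 3 other genes. Among them AC100830.4 was at 0.897 and 1.03 FPKM in control against 0.270 and 0.557 in 3′ WRE-Mut cells.

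AZIN1, the antizyme inhibitor, resembles ornithine decarboxylase but has no decarboxylase activity (ENSG00000155096.9, chr8:103838339-103906092, minus strand). It was at 42.1 and 43.6 FPKM in the control libraries and at 39.6 and 78.1 in the 3′ WRE-Mut libraries. Only 3′ WRE-Mut replicate 2 stood above the control pair. The log2 difference was 0.37 (95% limits −0.35 to 1.09, limma adjusted p = 0.458 over protein-coding genes). It became −0.11 without 3′ WRE-Mut replicate 2, and 0.85 with a limma adjusted p of 0.00961 without 3′ WRE-Mut replicate 1, the lowest of 12 alternatives whose highest was 0.831.

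Replicates lay further apart in 3′ WRE-Mut than in control cells. Across protein-coding genes the median absolute log2 difference between replicates was 0.22 in control against 0.34 in 3′ WRE-Mut cells, and across the members it was 0.25 and 0.43. The authors' lower and upper bounds of each FPKM give another measure of error within a library. For ODC1 they ran from 35.6 to 107 and from 24.6 to 73.9 in control, against ranges from 13.8 to 42.1 and from 15.8 to 60.3 in 3′ WRE-Mut cells. For all 10 members the bounds overlapped in each of the 4 pairs of a control and a 3′ WRE-Mut library.

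Ratios between members within a library do not depend on the scaling of that library, and they are given as descriptions without a test. ODC1 relative to OAZ1, the enzyme transcript against the transcript of its antizyme, was 0.163 and 0.154 in control against 0.0559 and 0.0551 in 3′ WRE-Mut cells. The replicates agreed closely, and the mean ratio was 0.159 ± 0.00657 in control against 0.0555 ± 0.000592 in 3′ WRE-Mut cells (SD, n = 2 each), 2.86-fold lower. ODC1 relative to AZIN1 was 1.69 and 1.13 in control against 0.705 and 0.487 in 3′ WRE-Mut cells, also without overlap. ODC1 was thus lower relative to OAZ1 and to AZIN1 in each 3′ WRE-Mut library than in either control library. For OAZ1 this had to be so, since ODC1 alone was lower and OAZ1 alone higher in each 3′ WRE-Mut library. SAT1 relative to ODC1 was 33.2 and 38.2 in control against 71.5 and 62.1 in 3′ WRE-Mut cells, 1.87-fold higher by the means. SRM relative to SMS overlapped, at 2.04 and 1.90 in control against 2.07 and 0.944 in 3′ WRE-Mut cells. Only 3′ WRE-Mut replicate 2 departed from the others in this ratio. AMD1 relative to ODC1, a ratio chosen after the values were seen, was 0.552 and 0.679 in control against 2.27 and 2.26 in 3′ WRE-Mut cells. The ratio of AMD1 to ODC1 likewise had to separate the groups, since AMD1 was higher and ODC1 lower in each 3′ WRE-Mut library. Since 4 of these 5 ratios hold ODC1, they are not separate observations.

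**Figure D3:**
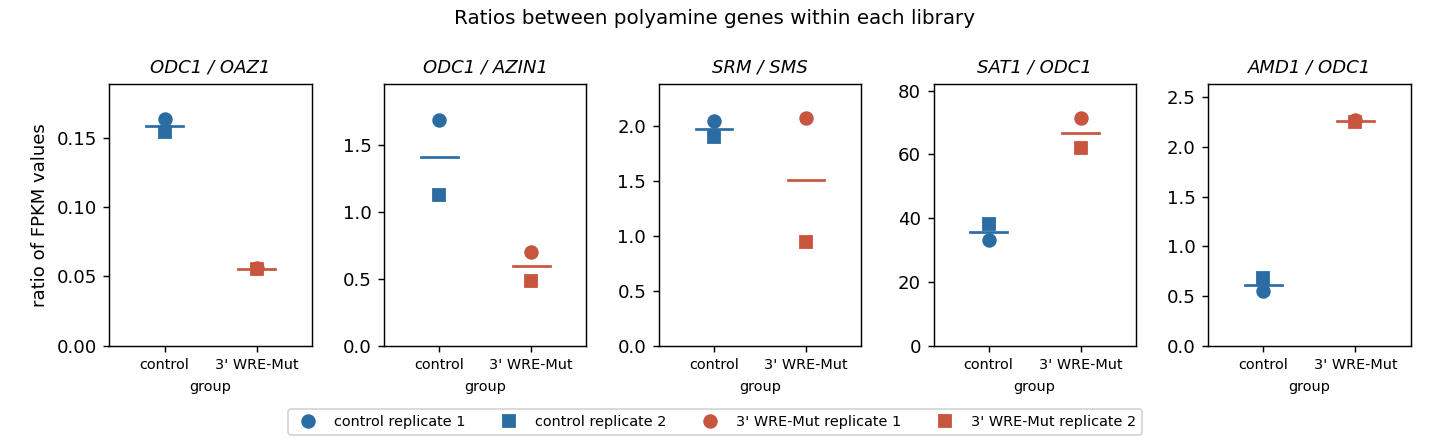
Each panel shows the ratio of the FPKM of a pair of genes in each library, on an axis that starts at 0, with control in blue, 3′ WRE-Mut in red and lines at the group means. The ratio of ODC1 to OAZ1 falls from near 0.16 to near 0.056, and only the ratio of SRM to SMS overlaps between the groups. The ratios of ODC1 to OAZ1 and of AMD1 to ODC1 had to separate, since their genes did so singly in opposite directions.

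A wider list of 38 genes that feed, use or move polyamines was read in the same fits, and 28 of them averaged 1 FPKM or more. ARG2 and SAT2 rose and MTAP fell over protein-coding genes, and 0 passed over all tested genes. This is 2 rises and 1 fall of 28, beside the 4.02% and 4.31% of protein-coding genes. The median log2 difference of the 28 genes was 0.069. In all, 7 of them were higher and 7 lower without overlap between the groups, beside 30.9% and 32.0% of protein-coding genes. The 7 lower ones include SATL1, whose mean was 1.21 FPKM for control but only 0.797 for 3′ WRE-Mut. SATL1 met the filter on low values only through control, so its separation is not read as a result. An unadjusted p under 0.05 was reached by 7 of the 28 genes, beside 30.1% of protein-coding genes. MTAP kept its call whichever library was left out, with limma adjusted p-values up to 0.0259, and lost it with no filter on low values (limma adjusted p = 0.190, the highest of 12 alternatives, of which the lowest was 5.72e-16). ARG2 and SAT2 lost theirs without either control library, with limma adjusted p-values of 0.191 and 0.239 for ARG2 and 0.162 and 0.230 for SAT2. Each of these genes lost its call in 5 of 12 alternatives, over which the adjusted p ran from 0.000989 to 0.239 for ARG2 and from 0.000144 to 0.230 for SAT2.

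MTAP cleaves methylthioadenosine, the by-product of spermidine and spermine synthesis, as a step of its salvage. It lies on chr9:21802635-21937650, plus strand, in a deposited locus merged with 11 other genes that include CDKN2A and CDKN2B. MTAP was at 59.8 and 68.0 FPKM in control against 13.3 and 7.83 in 3′ WRE-Mut cells. Both 3′ WRE-Mut libraries were far below both control libraries. The log2 difference was −2.53 (standard error 0.29), and limma's adjusted p was 0.00581 over protein-coding genes and 0.107 over all tested genes. Of the 8 genes of the methionine cycle and methylthioadenosine salvage, MTAP was the only one called, and their median log2 difference was −0.27. MAT2A, a synthase of S-adenosylmethionine, was at 34.05 and 44.8 FPKM in control against 18.98 and 25.7 in 3′ WRE-Mut cells, with a limma adjusted p of 0.0877 over protein-coding genes. Its regulatory partner MAT2B, named after its values were seen, was at 17.9 and 15.7 in control against 10.2 and 7.12 in 3′ WRE-Mut cells, with a limma adjusted p of 0.0702 over protein-coding genes. Neither gene overlapped between the groups, and neither passed the main test, while both passed with a replicate block. MAT2B passed without 3′ WRE-Mut replicate 1 and MAT2A without replicate 2 of that group. ENOPH1, an enzyme of the salvage route, had a log2 difference of −0.10 with overlapping groups.

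ARG2, the mitochondrial arginase that makes ornithine, was at 28.3 and 24.9 FPKM in control against 49.6 and 60.4 in 3′ WRE-Mut cells. It lies on chr14:68086637-68118425, plus strand, in a locus merged with 5 other genes. The groups were apart, with a log2 difference of 1.02 (limma adjusted p = 0.0410 over protein-coding genes and 0.159 over all tested genes). OAT, which exchanges ornithine with glutamate semialdehyde, was at 43.8 and 45.5 FPKM in control against 55.7 and 98.9 in 3′ WRE-Mut cells. It was higher in both 3′ WRE-Mut libraries without passing the test (limma adjusted p = 0.138 over protein-coding genes), which it passed when 3′ WRE-Mut replicate 1 was left out. ALDH18A1, which feeds proline and ornithine synthesis, had a log2 difference of 0.055. Of the 7 genes of ornithine and arginine supply 4 were tested, 1 rose and 0 fell, and their median was 0.50.

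SAT2, a relative of SAT1, was at 41.4 and 34.4 FPKM in control against 67.6 and 101 in 3′ WRE-Mut cells. Both 3′ WRE-Mut libraries were higher, and the log2 difference was 1.11 (limma adjusted p = 0.0430 over protein-coding genes and 0.165 over all tested genes). The gene is on chr17:7529552-7531194, minus strand, in a deposited locus merged with 14 other genes, among them EIF4A1 and SENP3. Of the 4 genes of this group, with OAZ3, another antizyme gene, AOC1, a diamine oxidase, and SATL1, SAT2 was the only one called. OAZ3 had a log2 difference of 0.083, AOC1 one of 0.27 and SATL1 one of −0.31. SATL1 was admitted by its control level, so its lower level in 3′ WRE-Mut cells is not read as a result.

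Hypusine, an amino acid made from spermidine, is placed on the translation factor EIF5A by DHPS and DOHH. EIF5A was at 231 and 219 FPKM in control against 203 and 296 in 3′ WRE-Mut cells, with overlapping groups and a log2 difference of 0.13. DHPS had a log2 difference of 0.24, and 0 of the 4 genes of hypusine formation passed the test. Of 15 transport genes 8 were tested and 0 passed with all 4 libraries, with a median log2 difference of −0.18. SLC3A2, a subunit of amino acid and polyamine exchangers, was at 276 FPKM in both control libraries and at 139 and 404 in 3′ WRE-Mut cells. The 3′ WRE-Mut libraries thus lay on either side of the control level. The log2 difference of SLC3A2 was −0.98 without 3′ WRE-Mut replicate 2 and 0.55 without replicate 1 of that group. GPC1, a glypican linked to polyamine uptake, was at 120 and 95.6 FPKM in control against 141 and 146 in 3′ WRE-Mut cells, with a limma adjusted p of 0.250 over protein-coding genes.

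**Figure D4:**
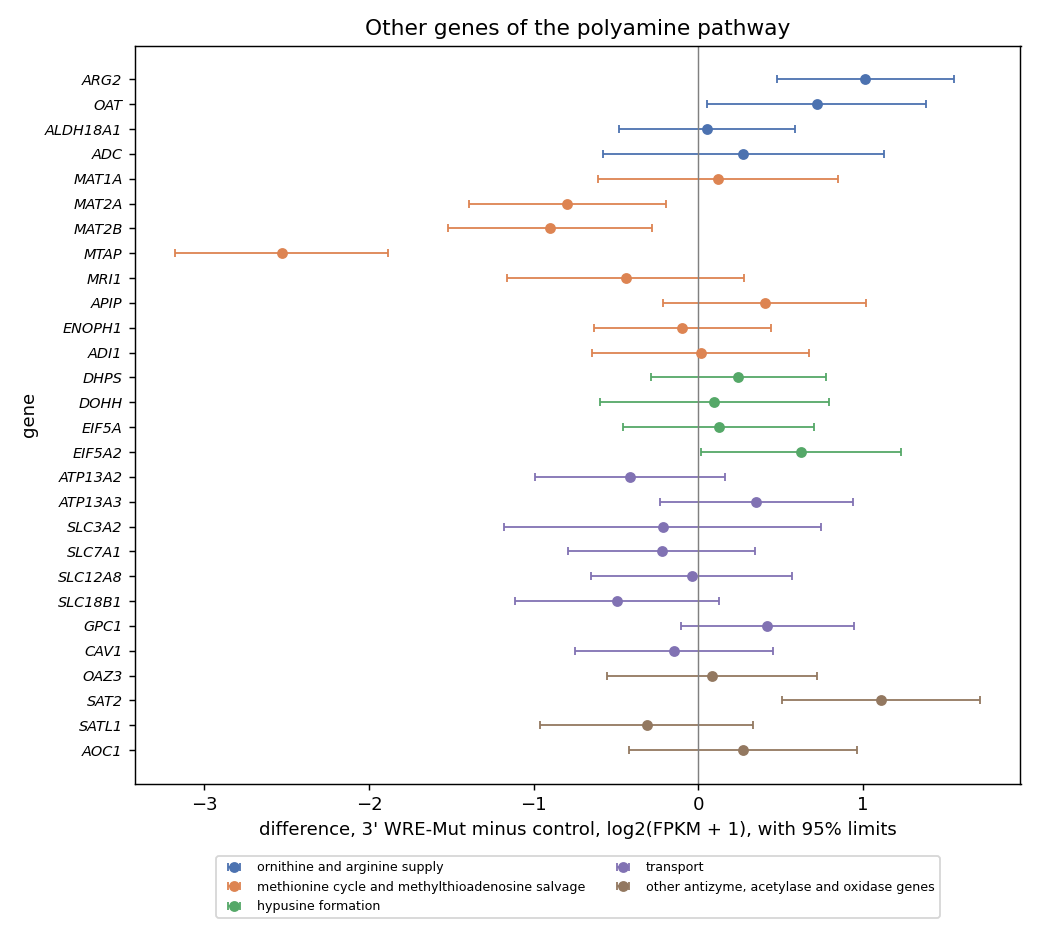
Points are the log2(FPKM + 1) differences, 3′ WRE-Mut minus control, of the 28 tested genes of the wider list with 95% limits from limma over protein-coding genes, coloured by role. MTAP lies far to the left at −2.53, and ARG2 and SAT2 to the right at 1.02 and 1.11.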

How the data were processed

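RNA-Seq was performed on 2 control and 2 3′ WRE-Mut libraries. The authors trimmed reads with the FASTX-Toolkit and, per the submitters' processing notes, aligned them with TopHat2 2.0.9 to hg19 and made the deposited FPKM values with Cufflinks 2.2.1, against a Gencode annotation. The paper's methods name an earlier Cufflinks version, and this difference between the sources was not resolved. The deposited fold changes, p-values and q-values of the authors' Cuffdiff comparison were not used. Strand of the reads is not given in the sources used here, so overlapping genes are not told apart. Processed pseudogenes named after 4 of the members (9 genes) did not exceed 0.265 FPKM.

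Groups were compared on log2(FPKM + 1) with limma 3.58.1 (R 4.3.3), using a variance trend and no replicate block, among genes averaging 1 FPKM or more. P-values were adjusted over each whole fit. Gene classes and positions came from Gencode v44lift37, which holds 55535 of the 57815 deposited IDs. Members, lists and the fit over protein-coding genes were chosen with earlier results of these data known. Genes named were the 10 members, MYC, and of the wider list those past the threshold and otherwise at most 2 per role with the highest mean FPKM. MAT2B and SATL1 were named in addition, and DOHH without values. Alternatives were pseudocounts of 0.1 and 0.5, no filter, a stricter filter of 5 FPKM, quantile normalization, median-ratio scaling, a fit with no variance trend, a replicate block, and leaving out each library. With a library left out, the 1 remaining in its group is assumed to vary like the other group. Promoter windows came from RefSeq. Plots were made in matplotlib 3.10.9 under Python 3.11.15.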

Additional observations from a re-analysis of the deposited data

How the results depend on the processing

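Over protein-coding genes, where 2 members passed, the count was 0 with a pseudocount of 0.1 or no filter on low values and 1 with a pseudocount of 0.5, a stricter filter of 5 FPKM, median-ratio scaling or no variance trend. Leaving out a library leaves 1 in a group and moves the calls of all protein-coding genes, so member counts of those fits are not given. Of the wider list, where 3 passed, the count was 1 with a pseudocount of 0.1 or no variance trend, 0 with no filter, and 1 to 6 when a library was left out. Over all tested genes MTAP alone passed with the stricter filter (1 gene). MYC kept its log2 difference of −1.44 with no filter, where limma's adjusted p was 0.190. It ranged from −1.68 to −1.20 when a library was left out, and the call was lost at −1.45 and −1.43, the values that lack a control library. The cause was not tested, except that 17782 in place of 11631 genes enter the fit with no filter. Over protein-coding genes 468 rose and 501 fell. These counts were 0 and 1 with no filter, 250 and 263 with a pseudocount of 0.1, 33 and 43 if control replicate 1 was left out and 22 and 60 if control replicate 2 was. They were 2018 and 2316 if 3′ WRE-Mut replicate 1 was left out.

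Replicate numbers are shared by the groups, but no source says that they mark a common day or batch, and 2 pairs are too few to show pairing (correlation of deviations 0.111 across 11631 genes, which are not independent replicates). With the replicate block 3 members passed, ODC1 included (limma adjusted p = 0.0204, range over its alternatives 0.0121 to 0.479), and 5 genes of the wider list (ARG2, SAT2, MTAP, MAT2A and MAT2B), while 1280 protein-coding genes rose and 1582 fell.

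Directions turned only for members that did not pass. With a library left out, the log2 difference ranged from −0.10 to 0.67 for SMS, −0.12 to 0.21 for SAT1, −0.90 to 0.23 for SMOX, −0.22 to 0.031 for OAZ2 and −0.11 to 0.85 for AZIN1. SAT1 was also −0.36 (protein-coding genes) or −0.21 (all tested genes) with quantile normalization. ODC1, AMD1, SRM, PAOX and OAZ1 kept their direction under every alternative that could be fitted. The groups of ODC1, AMD1, PAOX and OAZ1 did not overlap, so leaving out a library or changing the pseudocount could not turn the sign. A filter, the variance trend and the replicate block do not alter the difference itself. For these genes only quantile normalization and median-ratio scaling could have turned the direction. With depth unknown and 2 libraries per group, a missing call does not show that a gene did not differ.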
